A study of Homo sapiens with 6 samples.

Results

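The 4 arms of the microRNA (miRNA) hairpins MIR195 and MIR497, a 5p and a 3p arm from each, were taken by name from a table of 2656 mature miRNAs, and all 4 were abundant enough to test among 783. They were measured by small RNA sequencing in KPL4, an established human breast adenocarcinoma line. One group was 3 libraries of cells in which ERβ, the estrogen receptor encoded by ESR2, had been knocked out and exogenous ERβ put back, called KO + ERβ (libraries 1, 2 and 3). The other was 3 libraries of the ERβ knockout cells alone, called KO (libraries S1, S2 and 3). Both groups therefore lack endogenous ERβ and were grown in the same serum-containing medium with insulin and hydrocortisone, with no further treatment given. Knockout cells with an empty vector and parental cells are not among these samples, and neither the number of clones nor the way ERβ was put back is given in the sources used here. An effect of ERβ and any other change made with it therefore cannot be told apart. No label calls the replicates separate cultures, so the p-values reflect the spread between 6 libraries, which may be technical.

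miR-195 and miR-497 are made from a common primary transcript and belong to the miR-15/16 family, whose guide strands share a seed, the bases near the 5′ end that pair with messenger RNAs. Guide strands of this family repress cyclins, cyclin-dependent kinases, CHEK1, WEE1 and BCL2 and slow passage from G1 into S phase. Most mature product of these hairpins is the 5p arm, and the 3p arm is the opposite strand of the same processed duplex, usually degraded. In breast cancer both miRNAs have been described as lower than in normal tissue.

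The sequences of the arms are shown to let the shared seed and the differences between members be read; they are RefSeq's on GRCh38.p14, given 5′ to 3′ with bases 2 to 8 in capitals.
miR-195-5p: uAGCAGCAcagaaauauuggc
miR-497-5p: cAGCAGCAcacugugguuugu
miR-195-3p: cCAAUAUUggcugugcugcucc
miR-497-3p: cAAACCACacugugguguuaga
miR-16-5p: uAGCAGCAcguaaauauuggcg
miR-15a-5p: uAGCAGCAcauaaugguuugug
miR-15b-5p: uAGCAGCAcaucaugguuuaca
miR-424-5p: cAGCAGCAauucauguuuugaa
miR-503-5p: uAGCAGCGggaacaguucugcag
The 5p arms of miR-195 and miR-497 have the seed AGCAGCA in common with miR-16-5p, miR-15a-5p, miR-15b-5p and miR-424-5p, whereas miR-503-5p has AGCAGCG. Outside the seed the members resemble different relatives. Counted from 1 at the 5′ end without gaps, miR-195-5p differed from miR-16-5p at 2 of 21 positions (G10A and U11G, the miR-16-5p base first) and from miR-497-5p at 9 of 21, while miR-497-5p differed from miR-15a-5p at 4 of 21. The seeds of the 3p arms, CAAUAUU and AAACCAC, are unlike that of the 5p arms and unlike each other.

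The hairpins are shown to place each arm in its precursor, with the 5p and 3p arms in capitals.
MIR195: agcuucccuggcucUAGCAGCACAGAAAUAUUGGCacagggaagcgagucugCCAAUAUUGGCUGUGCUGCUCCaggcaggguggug
MIR497: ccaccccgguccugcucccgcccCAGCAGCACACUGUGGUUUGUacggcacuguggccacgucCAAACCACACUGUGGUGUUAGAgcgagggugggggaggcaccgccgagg
MIR195 (87 bases) lies at chr17:7017615-7017701 and MIR497 (112 bases) at chr17:7017911-7018022, both on the minus strand of GRCh38, with 209 bases between them. In GENCODE release 29 both lie inside the long noncoding gene MIR497HG (chr17:7015818-7019659, minus strand): in an intron of its spliced transcript MIR497HG-201, and within the single exon of MIR497HG-202. Since both hairpins lie in this host, the RefSeq window from 250 bases before to 50 bases after its annotated start (chr17:7019605-7019904, minus strand) is printed, with the transcribed bases in capitals.
MIR497HG promoter: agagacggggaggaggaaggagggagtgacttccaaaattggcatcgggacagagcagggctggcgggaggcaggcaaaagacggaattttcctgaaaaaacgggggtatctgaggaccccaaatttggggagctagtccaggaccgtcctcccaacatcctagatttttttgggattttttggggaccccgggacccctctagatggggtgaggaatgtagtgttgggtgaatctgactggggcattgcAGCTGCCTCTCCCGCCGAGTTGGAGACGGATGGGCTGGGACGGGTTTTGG
Neither the estrogen response half-site AGGTCA nor the palindromic element, GGTCA repeated in inverted order after any 3 bases, of which the half-site may form part, occurs on either strand of this window. They occur in 13.8% and 0.0570% of 35116 promoter windows of this length. The host transcript itself is not measured by this assay.

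Library totals were 10288415 to 14296902 counts in KO + ERβ and 10619000 to 12228519 counts in KO. KO library S2 stood apart from the other KO libraries, with a chi-square per degree of freedom of 307 and 331 against them over tested miRNAs; every other pair within a group was between 12.2 and 21.2. Levels are given as CPM, the usual depth-corrected count, with library sizes adjusted by TMM for differences in composition. Each fold change is KO + ERβ over KO from edgeR's quasi-likelihood test over all 783 miRNAs, on a log2 scale with its standard error, n = 3 per group, and a miRNA was called at a Benjamini-Hochberg adjusted p under 0.05. By that rule 77 miRNAs were higher and 104 lower (9.83% and 13.3% of those tested, 23.1% in all), against 123 and 70 under upper-quartile scaling and 146 and 61 under scaling to library totals. These alternatives moved the median of all tested miRNAs upward by 0.11 and 0.15, and the log2 fold changes of the members move with it. In bulk libraries such as these, fewer cells making a miRNA and less miRNA per cell cannot be told apart.

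The guide strands of both hairpins were lower in KO + ERβ cells, that of miR-195 by more than that of miR-497. Of the 4 arms 3 were called lower and 0 higher, against 13.3% of all tested miRNAs called lower: miR-195-5p fell by 1.00 and miR-497-5p by 0.72 on the log2 scale, miR-497-3p passed the test narrowly, and miR-195-3p did not pass. No arm was higher at an unadjusted p under 0.05, and DESeq2 and limma-voom also called 0 higher. In all 4 arms the 3 KO + ERβ libraries lay below the 3 KO libraries, as they did in 20.9% of tested miRNAs.

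miR-195-5p, the guide strand of MIR195, had 254, 248 and 260 CPM in KO + ERβ libraries 1, 2 and 3, against 523, 491 and 515 CPM in KO libraries S1, S2 and 3. The groups were far apart and the libraries within each were close together. Its mean was 254 ± 5.61 CPM in KO + ERβ and 510 ± 16.9 CPM in KO (SD, n = 3 each), a log2 fold change of -1.0 ± 0.07 (adjusted p = 3.74e-05 by edgeR's quasi-likelihood test), which is 50.1% lower. By unadjusted p it was the 4th of the 783, and it ranked 123rd of them in abundance.

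miR-497-5p, the guide strand of MIR497, had 304, 305 and 323 CPM in KO + ERβ libraries 1, 2 and 3, against 511, 502 and 517 CPM in KO libraries S1, S2 and 3. Again the groups did not overlap, but the KO + ERβ level lay higher than that of miR-195-5p. The means were 310 ± 10.5 CPM in KO + ERβ and 510 ± 7.56 CPM in KO (SD, n = 3 each), a log2 fold change of -0.72 ± 0.07 (adjusted p = 1.31e-04 by the same test), which is 39.1% lower. Both guide strands were called lower under each of 16 alternative fits, between -1.03 and -0.85 for miR-195-5p and between -0.74 and -0.56 for miR-497-5p; the smallest falls were those with library totals.

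miR-195-3p, the opposite strand of the miR-195 duplex, was the scarcer in counts by 13.1 ± 0.816 times in KO + ERβ and 21.2 ± 4.17 times in KO (SD, n = 3 each). It had 19.1, 20.5 and 18.9 CPM in KO + ERβ libraries 1, 2 and 3, against 22.2, 29.9 and 21.8 CPM in KO libraries S1, S2 and 3. KO library S2 alone was high, and the other KO libraries were close to the KO + ERβ level. The log2 fold change was -0.34 ± 0.14 and did not pass (edgeR quasi-likelihood test, adjusted p = 0.124). Without KO library S2 it was -0.17 ± 0.10 (adjusted p = 0.204), and it was called in 0 of 16 alternatives.

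miR-497-3p, the opposite strand of the miR-497 duplex and the least abundant arm, had 6.40, 4.61 and 5.34 CPM in KO + ERβ libraries 1, 2 and 3, against 9.91, 7.27 and 7.53 CPM in KO libraries S1, S2 and 3. The groups did not overlap, and KO library S1 lay above the rest of its group. These levels rest on 69 to 109 counts, for which exact Poisson 95% intervals span 19.3 to 24.4% to either side, covering counting error only. The log2 fold change was -0.61 ± 0.19 (edgeR quasi-likelihood test, adjusted p = 0.0434). The call was lost in 9 of 15 alternatives (adjusted p 0.00295 to 0.278 over all 15), among them leaving out KO library S1 (-0.45), KO library 3 (-0.66), KO + ERβ library 1 (-0.70), 2 (-0.46) or 3 (-0.59).

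**Figure D1:**
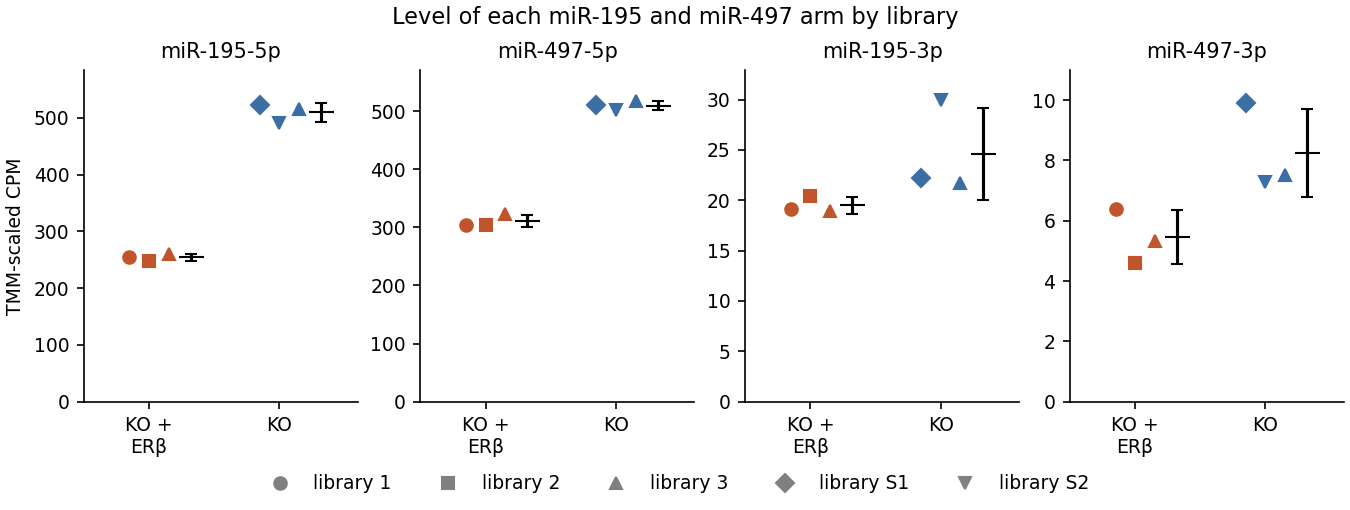
TMM-scaled CPM of each arm in every library, KO + ERβ on the left and KO on the right of each panel; marker shapes give the library and the bar the mean ± SD (n = 3). In all 4 panels the KO + ERβ libraries lie below the KO libraries, with KO library S2 high for miR-195-3p and KO library S1 high for miR-497-3p.

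Because arms of the same library share its depth and scaling, ratios between them do not depend on the normalization. In KO cells the guide strands of the neighbouring hairpins had almost equal counts, and in KO + ERβ cells that of miR-195 had the lower count. The ratio of miR-195-5p to miR-497-5p counts was 0.836, 0.815 and 0.805 in KO + ERβ libraries 1, 2 and 3, against 1.02, 0.978 and 0.997 in KO libraries S1, S2 and 3. The means were 0.819 ± 0.0159 in KO + ERβ and 1.00 ± 0.0232 in KO (SD, n = 3 each), without overlap. On the log2 scale the ratio was lower in KO + ERβ by a difference of -0.29, and an exact two-sided permutation test gave p = 0.10, the smallest that 3 libraries against 3 allow. With a library left out this difference lay between -0.30 and -0.27.

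The balance of the miR-195 arms was lower in KO + ERβ cells as well. The ratio of miR-195-5p to miR-195-3p was 13.3, 12.1 and 13.7 in KO + ERβ libraries 1, 2 and 3, against 23.6, 16.4 and 23.7 in KO libraries S1, S2 and 3. KO library S2 was the nearest to the KO + ERβ libraries, but the groups did not overlap. The log2 ratio averaged 3.70 ± 0.09 in KO + ERβ and 4.38 ± 0.30 in KO, a difference of -0.68 (exact two-sided permutation test, p = 0.10, n = 3 each), and the difference was -0.86 without KO library S2. For miR-497 the ratio of 5p to 3p was 47.5, 66.0 and 60.4 in KO + ERβ libraries 1, 2 and 3, against 51.5, 69.0 and 68.6 in KO libraries S1, S2 and 3. These overlapped: the log2 difference was -0.12 (exact two-sided permutation test, p = 0.50, n = 3 each) and 0.0137 without KO + ERβ library 1. For both hairpins the counting error of the 3p arm limits these ratios. The ratio of the 3p arms to each other overlapped too, at 3.66 ± 0.731 in KO + ERβ and 3.08 ± 0.952 in KO. In all 9 measures of this kind, those of the seed group included, were compared by permutation, and the smallest p adjusted over them by Benjamini-Hochberg was 0.15.

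**Figure D2:**
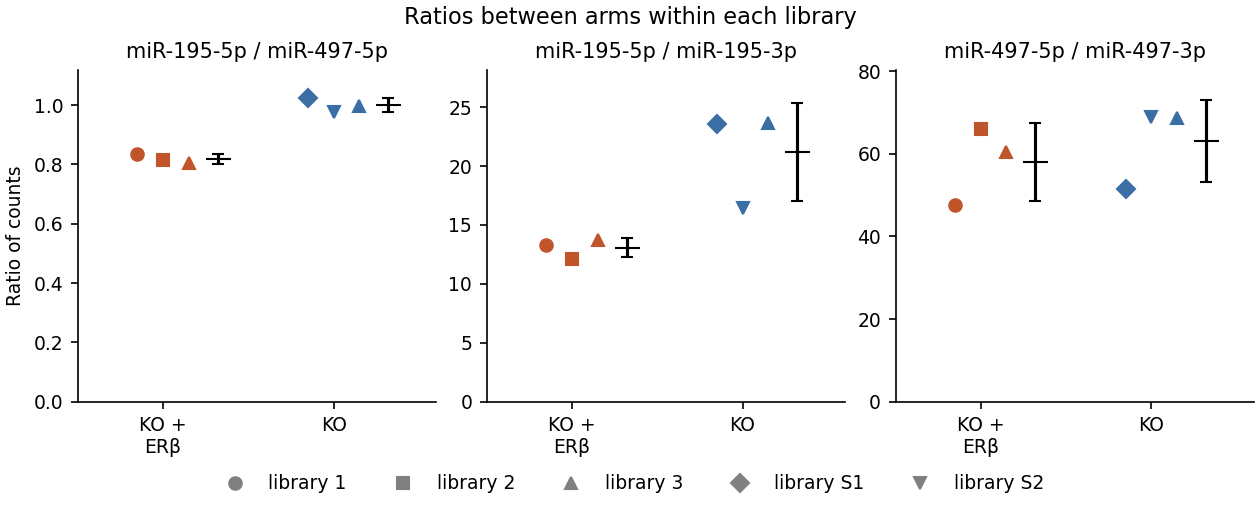
Ratios of counts between arms in each library, KO + ERβ on the left and KO on the right of each panel, with the mean ± SD (n = 3) as a bar. The ratio of the guide strands is near 1.00 in KO and 0.819 in KO + ERβ, that of the miR-195 arms is lower in KO + ERβ, and that of the miR-497 arms overlaps between groups.

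Set beside other hairpins, the unequal change of the miR-195 arms was among the larger ones. Of 209 hairpin names with both arms tested, the median absolute difference between the log2 fold changes of 5p and 3p was 0.17. It was 0.66 for miR-195, with a larger difference in 14 of the 209, and 0.11 for miR-497, with a larger one in 133. Among relatives the fold change of the 5p arm minus that of the 3p arm was -0.27 for miR-424, -0.11 for miR-503, -0.38 for miR-15a and -0.02 for miR-15b. In the 14 with a larger difference than miR-195, the scarcer arm averaged between 0.693 CPM (miR-320a) and 9.66 CPM (miR-491). For miR-195 it averaged 22.1 CPM. The part of counting error in this spread was not tested.

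**Figure D3:**
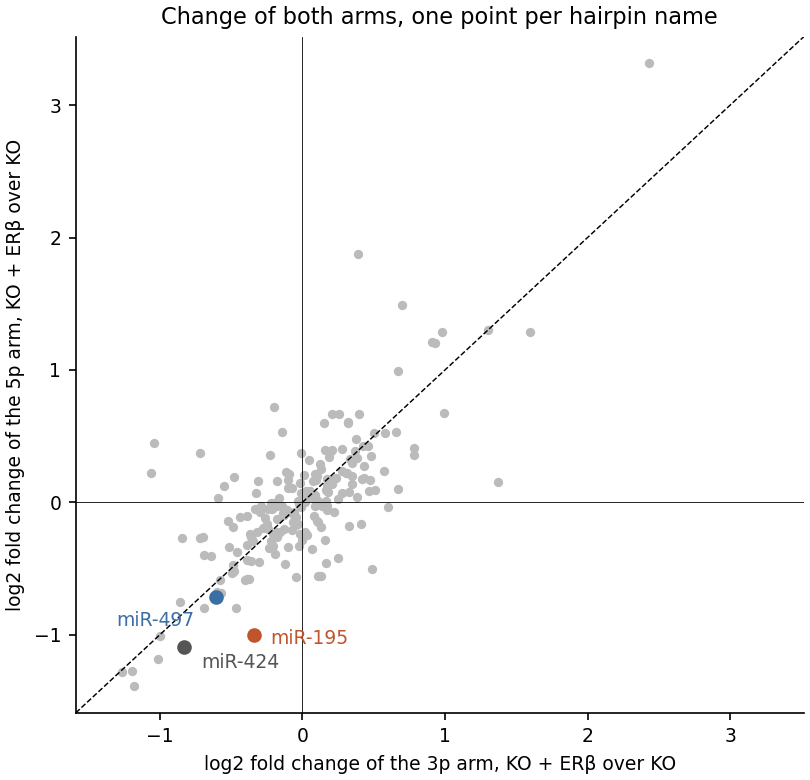
Log2 fold change of the 5p arm against that of the 3p arm, KO + ERβ over KO, for 209 hairpin names; the dashed line marks equal change. miR-497 lies close to the line, and miR-195 below it, at -1.0 for the 5p and -0.34 for the 3p arm.

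Across the miR-15/16 family, the arms that fell in KO + ERβ cells were made from chromosomes 17 and X (6 of 8 tested), and 0 of the 7 made from chromosomes 3 and 13 passed. Of 18 listed arms 15 were tested, of which 6 were called lower and 0 higher, against 13.3% and 9.83% of all tested miRNAs; the remaining miR-646, miR-6838-5p and miR-6838-3p had 0 counts in every library. These counts include the 4 members: of the 11 other tested arms 3 were lower, with a median log2 fold change of -0.03, against -0.01 for all tested miRNAs. At an unadjusted p under 0.05, 2 arms were higher and 8 lower, while DESeq2 called 0 higher and 5 lower and limma-voom 0 higher and 6 lower. Upper-quartile scaling gave 1 higher and 5 lower, and library totals gave 2 higher and 5 lower, the higher ones being miR-16-1-3p and, with library totals, miR-15a-5p. Lower counts were 4 without KO + ERβ library 1 or 2.

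Of the relatives, miR-424-5p, the guide strand of an X-linked hairpin with the same seed, moved most like the members: 560 ± 26.7 CPM in KO + ERβ and 1196 ± 60.2 CPM in KO (SD, n = 3 each; log2 fold change -1.09 ± 0.08). miR-503-5p, from the hairpin beside it, fell by 0.68 ± 0.13 and miR-424-3p by 0.83 ± 0.19 on the log2 scale, and miR-503-3p (-0.57 ± 0.25) did not pass. miR-16-5p, made from hairpins on chromosomes 3 and 13, is the family's dominant member. It had 83648 ± 3415 CPM in KO + ERβ and 83896 ± 1951 CPM in KO (log2 fold change -0.0043 ± 0.06; adjusted p = 0.961 by edgeR's quasi-likelihood test). Its neighbours miR-15a-5p (0.09 ± 0.08) and miR-15b-5p (-0.03 ± 0.09) did not pass either, nor did miR-15a-3p (0.47 ± 0.20), miR-16-1-3p (0.33 ± 0.12), miR-16-2-3p (-0.03 ± 0.11) and miR-15b-3p (-0.01 ± 0.07).

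**Figure D4:**
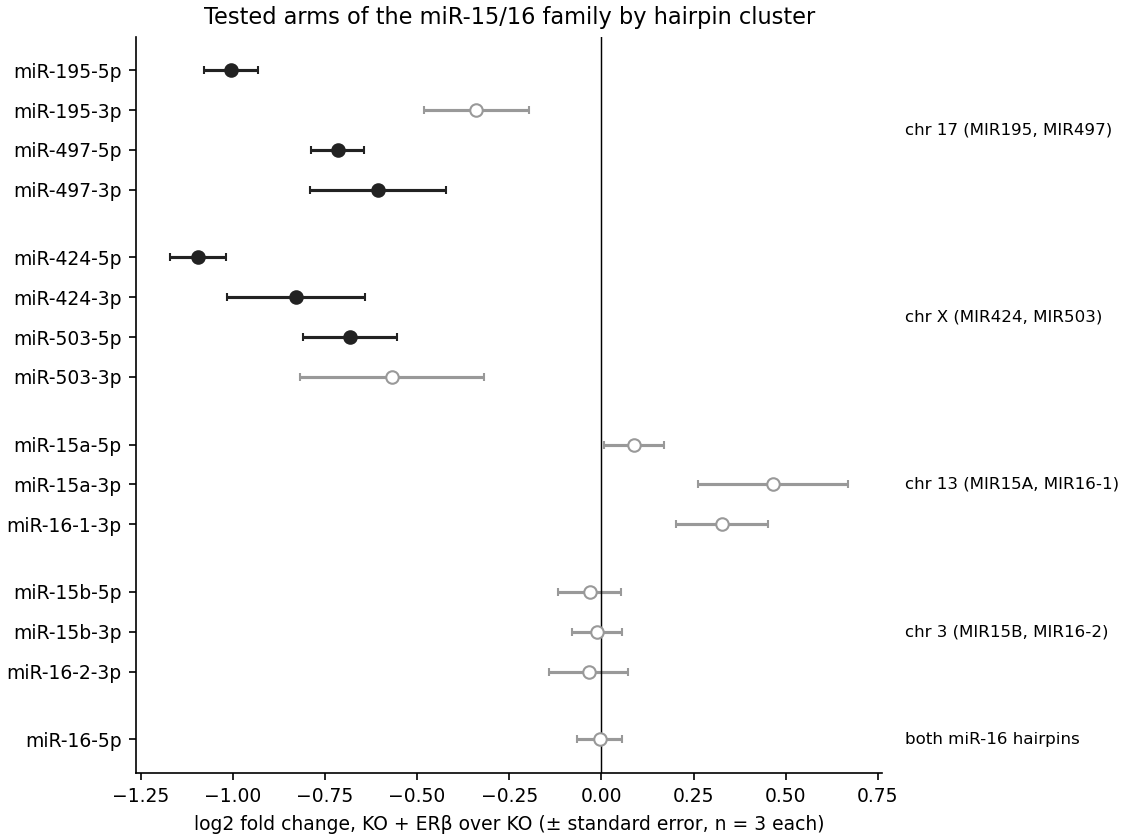
Log2 fold change, KO + ERβ over KO, with its standard error (n = 3 per group) for the 15 tested arms of the miR-15/16 family, grouped by chromosome and hairpins; filled points were called by edgeR's quasi-likelihood test at an adjusted p under 0.05. Arms from chromosomes 17 and X lie left of 0, those of chromosome 3 and miR-16-5p at about 0, and those of chromosome 13 to the right without being called.

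miR-195-5p and miR-16-5p are alike enough for short reads to be shared, which bears on the level of the scarcer name. By counts miR-16-5p was 329 ± 15.1 times as abundant as miR-195-5p in KO + ERβ and 165 ± 8.72 times in KO (SD, n = 3 each). The deposited counts of miR-195-5p were not whole in 4 of 6 libraries, with fractions of 0.33 in KO + ERβ libraries 2 and 3 and 0.67 in KO libraries S1 and 3. In the same libraries the fractions of miR-16-5p were 0.66 and 0.34, so that the fractions of both names summed to between 0.99 and 1.01, while miR-497-5p was whole in all 6. How many reads the names shared cannot be read from these fractions, and the part of such reads in the level of miR-195-5p was not tested. The lower miR-195-5p in KO + ERβ stood beside a miR-16-5p level that overlapped between the groups.

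The guide strands with the seed AGCAGCA can be read as a common group, since the seed sets most of their targets. In it miR-195-5p and miR-497-5p were a small part that was smaller still in KO + ERβ cells. They held 0.642%, 0.597% and 0.624% of the group's counts in KO + ERβ libraries 1, 2 and 3, against 1.12%, 1.05% and 1.14% in KO libraries S1, S2 and 3. The means were 0.621 ± 0.0227% in KO + ERβ and 1.10 ± 0.0497% in KO (SD, n = 3 each; exact two-sided permutation test, p = 0.10, the smallest possible). The widest Wilson 95% interval of a library ran from 1.12% to 1.17%, in KO library 3. Leaving miR-16-5p out of the group, their share was 7.71 ± 0.133% in KO + ERβ and 12.1 ± 0.765% in KO.

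Because miR-16-5p alone held 91.9 ± 0.240% of the group in KO + ERβ and 90.9 ± 0.262% in KO, the group as a whole showed little of the members' change. Its summed level was 90971 ± 3489 CPM in KO + ERβ and 92333 ± 2201 CPM in KO, with overlapping libraries (exact two-sided permutation test, p = 0.70, n = 3 each). The summed level of miR-195-5p and miR-497-5p was 565 ± 15.5 CPM in KO + ERβ and 1019 ± 23.4 CPM in KO. Without miR-16-5p the group summed to 7323 ± 93.3 CPM in KO + ERβ and 8437 ± 353 CPM in KO, without overlap (exact two-sided permutation test, p = 0.10). This difference of -1113 CPM was -503 CPM with upper-quartile factors and -271 CPM with library totals. The difference of the whole group, -1362 CPM, turned to 8465 CPM with library totals, to 5719 CPM with upper-quartile factors and to 642 CPM without KO + ERβ library 1.

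**Figure D5:**
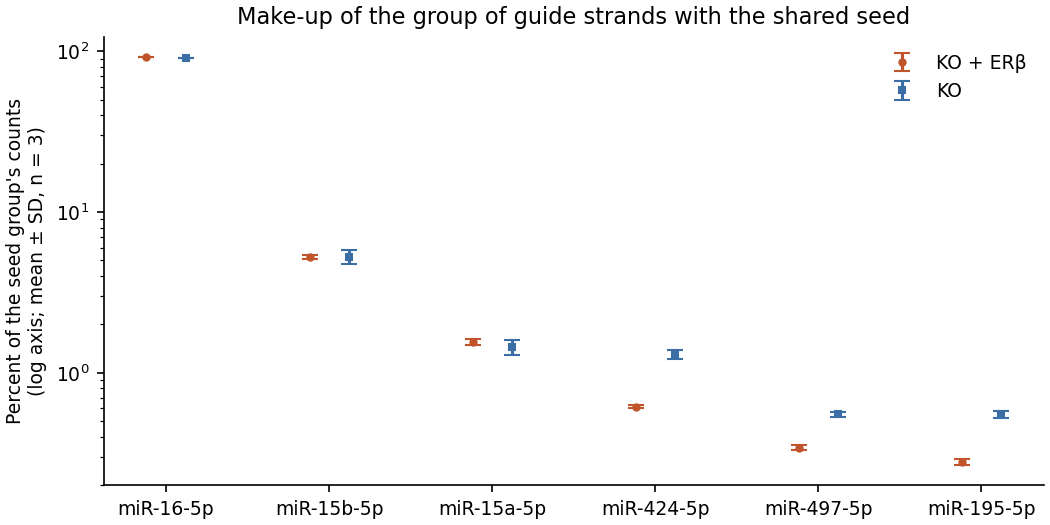
Share of the counts of all guide strands with the seed AGCAGCA held by each, in percent on a log axis, as mean ± SD (n = 3), KO + ERβ left of KO. miR-16-5p holds 91.9% and 90.9%, while the shares of miR-424-5p, miR-497-5p and miR-195-5p are lower in KO + ERβ.

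Other miRNAs within 5 Mb of MIR195 on chromosome 17 were called lower about as often as all tested miRNAs. Of 18 further arms annotated on chromosome 17 within 5 Mb of MIR195, 7 were tested, with a median log2 fold change of -0.18; 1 was called lower, miR-132-3p, against 13.3% of all tested miRNAs. miR-132-3p, a CREB-responsive miRNA, had 76.0 ± 2.25 CPM in KO + ERβ and 99.3 ± 14.9 CPM in KO (-0.39 ± 0.12, edgeR quasi-likelihood test, adjusted p = 0.0464). It lay 4967665 bases from MIR195, near the edge of the window, beside miR-132-5p, miR-212-3p and miR-212-5p, which were also among those tested. Its duplex partner miR-132-5p (-0.44 ± 0.17) and the adjacent miR-212-3p (-0.59 ± 0.19) did not pass. The nearest tested neighbours, miR-324-3p (-0.18 ± 0.20) at 205607 bases and miR-324-5p (-0.12 ± 0.10) at 205642 bases from MIR195, did not pass. By edgeR 0 were called higher; at an unadjusted p under 0.05 there were 0 higher and 3 lower, while DESeq2 called 0 higher and 1 lower and limma-voom 0 higher and 2 lower. The count of lower neighbours was 0 with upper-quartile factors, with library totals and without any 1 library except KO library S2, and 2 without KO library S2.

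Among other miRNAs known to restrain the cell cycle by targeting cyclins, cyclin-dependent kinases or E2F factors, more were lower than higher, as among all tested miRNAs, while those known to promote it moved both ways. Of 24 restraining miRNAs, which exclude the miR-15/16 family, 22 were tested, 8 were called lower and 1 higher, against 13.3% and 9.83% of all tested miRNAs, and the median log2 fold change was -0.17, against -0.01. miR-449a, a miR-34 relative that targets CDK6, had 25.1 ± 1.62 CPM in KO + ERβ and 49.1 ± 5.80 CPM in KO (-0.97 ± 0.12). miR-143-3p fell by 1.15 ± 0.15, miR-449b-5p by 0.89 ± 0.18 and miR-24-3p, which targets E2F2 and MYC, by 0.39 ± 0.07 on the log2 scale; the 1 higher was miR-192-5p (0.21 ± 0.07). Upper-quartile scaling gave 3 higher and 6 lower, library totals gave 4 higher and 5 lower, without miR-24-3p, and leaving out KO library S2 gave 4 higher and 12 lower. Without any one of the other libraries there were 0 higher, with 7 lower without KO library S1 or 3, 6 without KO + ERβ library 1 and 5 without KO + ERβ library 2 or 3.

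Of 14 promoting miRNAs, all tested, 4 were called higher and 3 lower, against 9.83% and 13.3% of all tested miRNAs, with a median of 0.19. miR-20b-5p, of an X-linked relative of the miR-17 cluster, had 284 ± 4.67 CPM in KO + ERβ and 570 ± 32.6 CPM in KO (-1.0 ± 0.08). miR-222-3p (-0.37 ± 0.07) and miR-221-3p (-0.34 ± 0.08), which repress CDKN1B, fell too. miR-18a-5p was the most significant of the higher ones (0.67 ± 0.13), with miR-17-5p, miR-20a-5p and miR-106a-5p, named after their values were seen, at 0.40 ± 0.11, 0.34 ± 0.11 and 0.45 ± 0.12. Upper-quartile scaling gave 6 higher and 2 lower, without miR-221-3p, and library totals gave 7 higher and 1 lower, without either of that pair. It was 9 higher and 5 lower without KO library S2, 1 higher and 2 lower without KO + ERβ library 1 or 3, 1 and 1 without KO + ERβ library 2, and 3 and 2 without KO library S1.

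Over the 6 libraries the miRNAs whose log2 CPM ran most like that of miR-195-5p, among 389 others averaging at least 10 CPM, were miR-497-5p (Pearson r = 0.998), miR-424-5p (0.998), miR-23b-3p (0.998), miR-146b-5p (0.997) and miR-1299 (0.996). For miR-497-5p they were miR-1299 (0.999), miR-195-5p (0.998), miR-424-5p (0.998), miR-23b-3p (0.994) and miR-152-3p (0.994). All of these fell with KO + ERβ, so the correlations mainly restate a common difference between 2 groups of 3 libraries. Their log2 fold changes were smaller than that of miR-195-5p in miR-23b-3p (-0.58 ± 0.06), miR-1299 (-0.61 ± 0.08), miR-152-3p (-0.70 ± 0.08) and miR-146b-5p (-0.73 ± 0.08), and miR-424-5p alone had a larger one.

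The cells had the miRNAs of the labelled epithelium. All 8 epithelial markers were tested and abundant, summing to between 93312 and 98066 CPM in KO + ERβ and between 94615 and 110661 CPM in KO. 1 was higher, miR-205-5p (0.52 ± 0.08), and 4 lower, of which miR-375-3p (-0.57 ± 0.10), miR-200c-3p (-0.31 ± 0.07) and miR-203a-3p (-0.25 ± 0.06) had the smallest p; miR-200c-3p and miR-203a-3p were not called with upper-quartile factors or library totals. The shares over all tested miRNAs were 9.83% higher, 13.3% lower. Under either of these scalings 1 epithelial marker was called lower, with 1 higher under upper-quartile factors and 2 higher under library totals. Lower markers were also 1 without any single KO + ERβ library, 2 without KO library S1 or 3, and 6 without KO library S2. Since miR-195 and miR-497 are also made in muscle, stromal and endothelial cells, markers of those and of other cell types were set beside them. Of 26 such markers 14 were tested, of which 6 were called lower and 0 higher, against 13.3% and 9.83% of all tested miRNAs (8 lower and 0 higher at an unadjusted p under 0.05; 6 and 0 by DESeq2 and by limma-voom), with a median of -0.35. They summed to between 59620 and 62896 CPM in KO + ERβ and between 65775 and 73307 CPM in KO, mostly from the neural marker miR-9-5p (-0.19 ± 0.08, not called). With upper-quartile factors 4 were lower, and with library totals 4 were lower and 1, miR-122-5p, higher. Without KO + ERβ library 1 or 2 there were 4 lower as well.

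The 5 stromal and smooth muscle markers summed to between 217 and 236 CPM in KO + ERβ and between 350 and 425 CPM in KO, nearly all of it miR-199b-5p (-0.80 ± 0.10), beside miR-143-3p at 3.60 ± 0.121 CPM in KO + ERβ and 8.0 ± 0.646 CPM in KO; miR-199a-5p (-0.40 ± 0.22) did not pass. The remaining markers of this list, miR-145-5p and miR-214-3p, were near 0. They had 0.119 ± 0.136 and 0.0223 ± 0.0386 CPM in KO + ERβ and 0.489 ± 0.0682 and 0.0882 ± 0.0910 CPM in KO. Of the endothelial pair, miR-126-3p was lower (-0.30 ± 0.06), though not with upper-quartile factors or library totals, and miR-126-5p did not pass (-0.08 ± 0.09). The 7 skeletal and cardiac muscle markers summed to at most 5.32 CPM in KO + ERβ and 12.8 CPM in KO; miR-133b had 0 counts in every library, while miR-1-3p (-2.67 ± 0.33) and miR-499a-5p (-0.98 ± 0.14) were lower. The 7 blood markers summed to between 19.2 and 22.1 CPM in KO + ERβ and between 18.6 and 23.5 CPM in KO, with 0 called by edgeR, DESeq2 or limma-voom and 1 lower at an unadjusted p under 0.05: miR-451a was at -0.80 ± 0.28, miR-142-3p at 0.02 ± 0.18 and miR-142-5p at 0.0060 ± 0.20. Of the 4 neural markers miR-129-5p was lower (-0.45 ± 0.13), again not with those scalings, and miR-128-3p did not pass (-0.06 ± 0.09), and the liver marker miR-122-5p did not pass (0.33 ± 0.15). Of the 12 stromal and muscle markers 4 were thus lower, like the members, 1 did not pass and 7 were too scarce to test. The labels name KPL4 cells only. Neither the source of these markers nor any part of it in the members' difference was tested.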

How the data were processed

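Small RNA libraries of 6 KPL4 samples were prepared with a QIAseq miRNA kit, per the labels' protocols. FastQC, Trim Galore and GRCh38 are listed, without their roles, in the submitters' processing notes. Alignment, counting, annotation release, treatment of shared reads and use of molecular identifiers were not given in those sources. The values are expected counts deposited by the authors; 6.33 to 7.27% of a library's entries had a fractional part, and all were rounded. Columns were grouped by name. Of the KO columns 2 carry the number 1 and are known by group only (S1 and S2).

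For the comparison edgeR 4.0.16 (R 4.3.3) applied filterByExpr (minimum count 10, minimum total 15) and TMM factors. Its robust quasi-likelihood test without covariates was followed by Benjamini-Hochberg adjustment over 783 miRNAs. The fit was also run on simulated counts with the same spread beyond counting error for every miRNA and library. Those held no library that stood apart like KO library S2, so they do not test the fit under such a library. Standard errors were taken as the absolute log2 fold change divided by the root of the F statistic. A count of 3 corresponds to 0.201 to 0.305 CPM. Log2 ratios of counts carry a pseudocount of 0.5. These ratios and the shares and summed levels of the seed group were compared with exact permutation tests. Alternatives were 4 scalings, 2 filters, DESeq2 1.42.0, limma-voom (limma 3.58.1), a fit without the robust option, a replicate block and each library left out. Intervals cover counting error only.

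The members and lists were chosen with earlier results of these data known. The naming rule takes the members, the tested family arms, up to 4 miRNAs of each other list by smallest adjusted p, and the 5 most correlated with each guide strand.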

Additional observations from a re-analysis of the deposited data

How the results depend on the processing

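miR-195-5p and miR-497-5p were called lower, and miR-195-3p was not called, in each of 16 alternatives; with a library left out their log2 fold changes were -1.03 to -0.95, -0.74 to -0.67 and -0.42 to -0.17. miR-497-3p was -0.50 with upper-quartile factors, -0.45 with library totals and -0.59 with the DESeq2 test, none called, and -0.70 to -0.45 with a library left out; it was not tested under the filter of 10 CPM in 3 libraries. Members called lower were 2 or 3 throughout. The numbers in the column names pair the libraries only in part. The labels list KO replicates 1, 2 and 3, but KO libraries S1 and S2 both carry the number 1. Which of them is replicate 2 is not known, and the pairs and the block below count both as number 1. Deviations from group means of same-numbered libraries correlated at -0.10, 0.13 and 0.12, and those of the other pairs at -0.10 to 0.08. Whether same-numbered libraries share a culture or batch is not given and cannot be told from these values. A replicate block from these numbers leaves KO + ERβ library 2 alone in its block, where it adds nothing to the group difference. The block fit keeps only 2 residual degrees of freedom. In it 2 members were lower (miR-195-5p -0.99, miR-497-5p -0.71) and miR-497-3p was -0.45 and not called. Of all miRNAs 38 were higher and 50 lower, and of the neighbours 0 were lower. The restraining list had 0 higher and 2 lower, and the promoting list 1 higher and 1 lower. The cause of the lost calls was not tested.

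Other counts moved as follows. Family arms higher were 1 with upper-quartile factors, 2 with library totals and 1 with the filter of 10 CPM. Neighbours lower were 0 with both of those scalings, TMM without the 10 most abundant miRNAs, no filter and the 10 CPM filter, 2 with limma-voom, and 0 to 2 with a library left out. The restraining list had 3 higher with upper-quartile factors, 4 higher and 5 lower with library totals, 3 higher and 5 lower with the 10 CPM filter, 0 higher with DESeq2 or TMM without the 10 most abundant, and 0 to 4 higher and 5 to 12 lower with a library left out. The promoting list had 7 higher and 1 lower with library totals, 7 higher without a filter, and 1 to 9 higher and 1 to 5 lower with a library left out. Of all miRNAs 123 were higher with upper-quartile factors, 146 higher and 61 lower with library totals, and 66 lower with the 10 CPM filter; with a library left out there were 49 to 122 higher and 58 to 157 lower.

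The log2 difference of the miR-497 arm ratio was -0.26 to 0.014 with a library left out, and the summed level of the seed group differed by -2538 to 642 CPM. With library totals and upper-quartile factors the whole seed group differed by 8465 and 5719 CPM, without miR-16-5p by -271 and -503 CPM, and miR-195-5p with miR-497-5p by -369 and -394 CPM. Values near 0 turned sign, none of them called where the sign turned. With upper-quartile factors and library totals these were miR-16-5p (0.11, 0.15), miR-15b-5p (0.080, 0.12), miR-15b-3p (0.10, 0.14), miR-16-2-3p (0.079, 0.13), miR-126-5p (0.037, 0.083) and miR-128-3p (0.048, 0.088), and miR-324-5p with library totals (0.028). Without a filter and with 10 CPM they were miR-16-5p (0.043, 0.037), miR-15b-5p (0.016, 0.0088), miR-15b-3p (0.035, 0.030) and miR-16-2-3p (0.012, 0.0081). miR-16-5p was 0.0039 with DESeq2 factors or test. miR-142-3p was -0.063 with the replicate block, and miR-142-5p -0.16 with it and -0.0053 with limma-voom. With a library left out the ranges were -0.023 to 0.059 for miR-16-5p, -0.10 to 0.063 for miR-15b-5p, -0.036 to 0.041 for miR-15b-3p, -0.13 to 0.060 for miR-16-2-3p, -0.16 to 0.0083 for miR-126-5p, -0.13 to 0.044 for miR-128-3p, -0.16 to 0.18 for miR-142-3p and -0.10 to 0.18 for miR-142-5p. Without KO library S2, miR-126-5p was called lower (-0.16). The cause was not tested. Depth limits the 3p arms most.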
